A study of Mus musculus with 14 samples.

Results

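Of 6155 EBF1 peaks found in A-MuLV pro-B cells with wild-type (wt) EBF1, 1037 were also called with EBF1 lacking its C-terminal domain (dC) and lay under a Brg1 peak with EBF1 wt but under none with EBF1 dC. These are the member sites described here. They were chosen by the peak calls of the 4 A-MuLV lists, on chromosomes 1 to 19, X and Y, with an overlap of at least 1 bp counting as shared. Both EBF1 forms were called at 4719 sites, of which 2593 had a Brg1 peak with wt and with dC (kept sites), 881 had one with neither, and 208 had one with dC alone. The other 1436 EBF1 sites were called with wt alone. The member sites make up 22.0% of the sites called with both forms, a share that follows from the rule.

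EBF1 is a transcription factor that specifies the B-cell lineage and binds palindromic sites in the regulatory regions of B-cell genes. Brg1 (gene Smarca4) is the motor subunit of BAF and PBAF complexes, which slide and evict nucleosomes and make DNA accessible. The C-terminal domain of EBF1 contains a prion-like stretch, and the series set versions of that domain against Brg1 occupancy.

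All values are from ChIP-seq peak lists on the build GRCm38. The A-MuLV cells are pro-B cells of C57BL/6 origin, transformed by the Abelson virus from EBF1 fl/fl fetal liver, with the endogenous EBF1 replaced by retroviral wt or dC. Brg1 was measured besides in EBF1 -/- c-kit+ fetal liver progenitors of C57BL/6 embryos of day 16 to 18, grown on OP9 stroma for 14 to 20 days after transduction with a pMys vector. That vector was empty or carried EBF1 wt or dC, or dPLD, a deletion of residues 480 to 520, or F-GATA3, in which the TA1 domain of GATA3 stands in for the C-terminal domain. The labels place wt and F-GATA3 fetal liver cells at the pro-B stage, dC and dPLD cells in a partial block ahead of it and empty-vector cells in a block, so that EBF1 version and stage cannot be told apart in fetal liver. EBF1 was not measured there. Each group had 1 library, so no difference between conditions was tested, and percentages carry exact Clopper-Pearson 95% intervals that cover counting error only. Sequencing depth is unknown, so the lack of a call does not show that the protein was missing. Fold enrichment is the authors' value of ChIP over local background at the summit, used to describe and rank peaks within 1 list.

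Few member sites lay at promoters, and the sequences of those that did are the only ones that could be read here. Of the 1037 sites, 26 (2.51%, 1.64-3.65%) overlapped a RefSeq promoter window, 250 bases before to 50 after a start, against 7.59% of all EBF1 wt sites. The share was 15.1% at kept sites (391 of 2593, 13.7-16.5%), 2.04% at sites without A-MuLV Brg1 in either line and 1.11% where EBF1 was called with wt alone, so that kept sites, not members, stood apart. The palindrome CCCNNGGG reads the same on both strands, and with a T ahead of it and an A after it (the long form) it is the core of the EBF1 motif. The long form occurred in 7 of the 29 windows at member sites (24.1%, 10.3-43.5%), which hold 6 distinct matches. It occurred in 47 of 462 windows at kept sites (10.2%, 7.57-13.3%; 44 distinct matches), in 4 of 20 at sites without A-MuLV Brg1 and in 204 of 21238 windows in all (0.961%). CCCNNGGG with any flanking bases, which includes the long form, occurred in 13 of the 29 (44.8%), in 45.0% of the windows at kept sites and in 15.6% of all windows. Starts that lie close together give overlapping windows, and both Mterf2 windows at member sites show the same match, so the windows are not independent and the intervals are too narrow. The 4 windows below were chosen after their values had been seen, 2 for their fetal liver pattern or A-MuLV Brg1 fold and 2 for the long form of the palindrome.

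In these RefSeq GRCm38.p6 windows, written 5′ to 3′ on the strand of the gene, capitals mark the match. Sapcd2 (a regulator of spindle orientation; chr2:25371785-25372084, plus strand) and Niban3 (a B-cell-expressed protein; chr8:71597458-71597757, plus strand) hold a pair of overlapping CCCNNGGG matches. Snupn (snurportin, an import receptor of snRNPs; chr9:56950658-56950957, plus strand) and Irak3 (an inhibitor of Toll-like receptor signalling; chr10:120201548-120201847, minus strand) hold the long form.
Sapcd2: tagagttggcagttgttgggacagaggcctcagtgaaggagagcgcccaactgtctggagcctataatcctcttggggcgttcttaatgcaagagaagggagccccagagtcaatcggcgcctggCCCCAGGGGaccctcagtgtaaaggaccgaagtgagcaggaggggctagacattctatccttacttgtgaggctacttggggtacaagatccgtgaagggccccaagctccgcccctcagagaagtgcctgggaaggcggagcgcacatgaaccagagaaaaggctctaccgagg
Niban3: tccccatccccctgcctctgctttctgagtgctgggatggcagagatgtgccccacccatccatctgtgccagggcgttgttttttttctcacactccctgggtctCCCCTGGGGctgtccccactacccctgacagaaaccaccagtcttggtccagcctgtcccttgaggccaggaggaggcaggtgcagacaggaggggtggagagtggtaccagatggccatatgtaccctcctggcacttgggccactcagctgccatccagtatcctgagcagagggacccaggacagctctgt
Snupn: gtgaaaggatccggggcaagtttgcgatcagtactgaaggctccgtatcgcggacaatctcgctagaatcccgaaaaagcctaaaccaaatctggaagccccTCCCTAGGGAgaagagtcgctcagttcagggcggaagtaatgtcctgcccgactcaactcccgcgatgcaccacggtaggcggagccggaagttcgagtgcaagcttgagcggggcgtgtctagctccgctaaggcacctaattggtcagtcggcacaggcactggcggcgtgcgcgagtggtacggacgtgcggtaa
Irak3: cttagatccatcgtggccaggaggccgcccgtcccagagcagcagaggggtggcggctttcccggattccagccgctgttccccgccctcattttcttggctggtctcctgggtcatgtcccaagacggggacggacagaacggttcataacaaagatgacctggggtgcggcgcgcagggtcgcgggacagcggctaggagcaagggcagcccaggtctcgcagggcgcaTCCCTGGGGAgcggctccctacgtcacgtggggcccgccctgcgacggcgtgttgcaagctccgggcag

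The Sapcd2 site had fetal liver Brg1 folds of 12.1 (wt), 10.8 (F-GATA3) and 5.19 (dPLD), and no peak with dC or the empty vector. At Niban3 the A-MuLV wt Brg1 fold was 19.2, and the fetal liver folds were 13.8 (wt), 13.7 (F-GATA3), 10.2 (dPLD) and 9.09 (dC), again with no empty-vector peak. At Irak3 the same 4 lists had folds of 6.89, 5.45, 6.49 and 7.72. At Snupn all 5 lists had a peak, with 9.53, 8.06, 7.22, 9.74 and, for the empty vector, 5.30. Of the 26 promoter sites, 20 had a fetal liver wt peak, 20 an F-GATA3 peak, 20 a dPLD peak, 18 a dC peak and 7 an empty-vector peak. Among the 26, Sapcd2, Apbb1 and Mrgpre had a fetal liver wt peak and none with dC.

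In the A-MuLV lists themselves, which chose the members, Brg1 peaks at member sites were weaker and narrower than at kept sites. The median wt Brg1 fold was 6.12 at member and 8.26 at kept sites, and the median Brg1 peak width 351 and 694 bp. EBF1 wt folds were close, with medians of 10.4 and 10.9, whereas EBF1 dC folds were 9.86 and 15.9. The Brg1 summit lay a median of 39 bp from the EBF1 summit at member sites, and within 100 bp at 78.7%. The −log10 q of the member Brg1 peak had a median of 8.34 and a minimum of 1.59, with 37 sites under 3, 222 under 5, 414 at 10 or more and 134 at 20 or more. Near the other edge of the rule, 85 kept sites had a dC Brg1 peak with a −log10 q under 3, and 30 member sites had a dC Brg1 peak within 100 bp that did not touch them. The nearest dC Brg1 peak lay a median of 8598 bp away and within 1 kb of 177 members. These values describe the choice and were not tested.

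In fetal liver, which the rule did not use, member sites held Brg1 most often with wt and F-GATA3 and least often with dC among the 4 EBF1 versions. A Brg1 peak was called with wt at 692 of the 1037 sites (66.7%, 63.8-69.6%), against 66.9% of all 6155 EBF1 wt sites. With F-GATA3 it was called at 638 (61.5%, 58.5-64.5%; 62.9% of all sites), with dPLD at 529 (51.0%, 47.9-54.1%; 59.2% of all), with dC at 403 (38.9%, 35.9-41.9%; 52.5% of all) and, for the empty vector, at 82 (7.91%, 6.34-9.72%; 17.0% of all). The wt and F-GATA3 shares were near those of all EBF1 sites, and the dPLD, dC and empty-vector shares lay below them. All EBF1 sites include those called with wt alone, which members by rule do not. The 4719 sites called with both forms had 76.4% (wt), 70.9% (F-GATA3), 70.2% (dPLD), 63.7% (dC) and 20.8% (empty vector). Each member share lay below the matching one of these, wt and F-GATA3 included. With the lists of each kind held to equal numbers of peaks, F-GATA3 (50.9%) came level with wt (50.5%), and the other versions kept their order.

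Kept sites had a narrower spread among the 4 versions, from 93.9% with wt (92.9-94.8%) through 91.8% with dPLD and 89.7% with F-GATA3 to 87.5% with dC (86.1-88.7%), and had 32.4% for the empty vector. Sites with A-MuLV Brg1 in neither line had 36.1% (wt), 28.7% (F-GATA3), 27.7% (dPLD), 21.5% with dC (18.8-24.3%) and 4.09% (empty vector). Sites where EBF1 was called with wt alone had 35.9% (wt), 36.4% (F-GATA3), 23.0% (dPLD), 15.5% with dC (13.6-17.4%) and 4.25% (empty vector). The 208 sites with A-MuLV Brg1 in dC cells alone were covered at 76.0% with fetal liver wt (69.6-81.6%), 63.0% (F-GATA3), 77.9% (dPLD) and 70.7% with dC (64.0-76.8%). The dC intervals of members and of these 208 sites did not overlap, whereas their wt intervals touched. Weighting the kept sites to the A-MuLV Brg1 fold of the members left their dC share at 86.8%, and weighting them to the EBF1 dC fold left it at 85.7%.

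**Figure D1:**
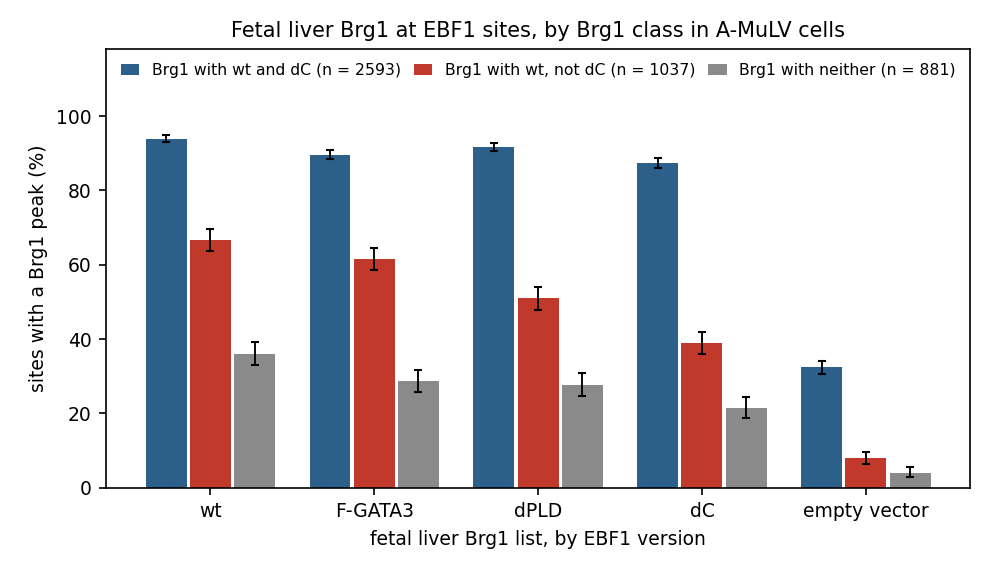
Percentage of EBF1 sites (y axis) under a fetal liver Brg1 peak in each of the 5 lists (x axis), for kept sites, member sites and sites with A-MuLV Brg1 in neither line; error bars are exact 95% intervals of counting error. The member bars fall from 66.7% with wt to 38.9% with dC, while the kept bars stay between 87.5% and 93.9% across the 4 EBF1 versions.

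Counted site by site, fetal liver Brg1 calls with wt and not dC were more frequent at member sites than over all EBF1 wt sites. Brg1 was called with wt and not dC at 312 members (30.1%, 27.3-33.0%, against 16.2% of all EBF1 wt sites) and with dC and not wt at 23, so that wt made up 93.1% of the sites with 1 of the 2 (89.9-95.6%). That split was similar elsewhere, at 90.5% of all EBF1 wt sites with 1 of the 2 (88.6-92.1%) and 85.5% of such kept sites (80.4-89.8%). Where A-MuLV Brg1 was called in neither line it was 88.2% (82.3-92.6%), and 16.9% of all those sites had wt and not dC. F-GATA3 without dC accounted for 279 members (14.9% of all EBF1 wt sites had this pattern) and the reverse for 44 (86.4%, 82.1-89.9%; 76.8% over all EBF1 wt sites, 74.3-79.1%). For dPLD and dC the member numbers were 146 and 20 (88.0%, against 85.4% over all EBF1 wt sites). For wt and F-GATA3 they were 117 and 63 (65.0%, 57.6-71.9%; 66.8% over all EBF1 wt sites). For wt and dPLD they were 195 and 32 (85.9%, 80.7-90.2%; 82.6% over all). These 3 splits were near those of all EBF1 wt sites. F-GATA3 without dPLD was seen at 175 member sites and dPLD without F-GATA3 at 66 (72.6%, 66.5-78.1%; 62.1% over all EBF1 wt sites, 58.9-65.2%). At kept sites that last pair ran the other way, with 70 and 125 (35.9%, 29.2-43.1%), but the order at kept sites turned when summits had to lie within 200 bp, with 75.9% (F-GATA3) and 72.6% (dPLD).

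The sites of both classes differ in how strong their fetal liver peaks are, with a median wt fold of 8.18 at member and 10.9 at kept sites. Among sites with a fetal liver wt peak, a dC peak was called at 54.9% of members (51.1-58.7%) and 91.7% of kept sites. After weighting the kept sites to the members' fetal liver wt folds, that share was 87.1%. The corresponding shares were 83.1%, 94.6% and 89.3% for F-GATA3 and 71.8%, 96.6% and 93.4% for dPLD, in the order members, kept and weighted kept. F-GATA3 thus stood nearest to the weighted kept sites and dC farthest among the 3 altered versions. The low dC share was not particular to members. Of sites with A-MuLV Brg1 in neither line and a fetal liver wt peak, 53.1% had a dC peak (47.5-58.7%, unweighted). Their F-GATA3 and dPLD shares were both 68.6%. Split into 10 bins by fetal liver wt fold, members in the strongest bin (14.4 to 27.0) had a dC peak at 63 of 70 sites (80.5-95.9%), and those in the weakest (3.81 to 5.26) at 23 of 70 (22.1-45.1%). Kept sites in the same bins had one at 644 of 660 (96.1-98.6%) and 58 of 87 (55.7-76.4%), so that the share was higher at stronger peaks in both classes.

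Member sites fell into a few combinations of the 5 fetal liver lists. All 4 EBF1 versions but not the empty vector had a peak at 275 (26.5%). That share was 50.5% at kept sites and 12.3% at sites with A-MuLV Brg1 in neither line. All 5 lists had one at 68 members (6.56%, against 31.9% of kept sites and 2.50% of sites with Brg1 in neither line). No list had one at 251 (24.2%, 21.6-26.9%), against 26.8% of all EBF1 wt sites, 3.90% of kept sites and 56.4% with Brg1 in neither line. Peaks with wt and F-GATA3 alone were seen at 113 (10.9%), with wt, F-GATA3 and dPLD at 107 (10.3%), with wt alone at 69 (6.65%) and with F-GATA3 alone at 51 (4.92%). In the same order, kept sites had 1.85%, 4.17%, 0.771% and 0.463%. Sites with A-MuLV Brg1 in neither line had 4.77%, 4.09%, 5.11% and 2.95%, so that wt alone was near the member share there. Of the 312 members with a wt and no dC peak, 223 had an F-GATA3 peak and 129 a dPLD peak, 110 had both and 70 neither. At kept sites the wt-without-dC pattern was seen at 201 (7.75%), of which 160 had F-GATA3 and 131 dPLD.

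**Figure D2:**
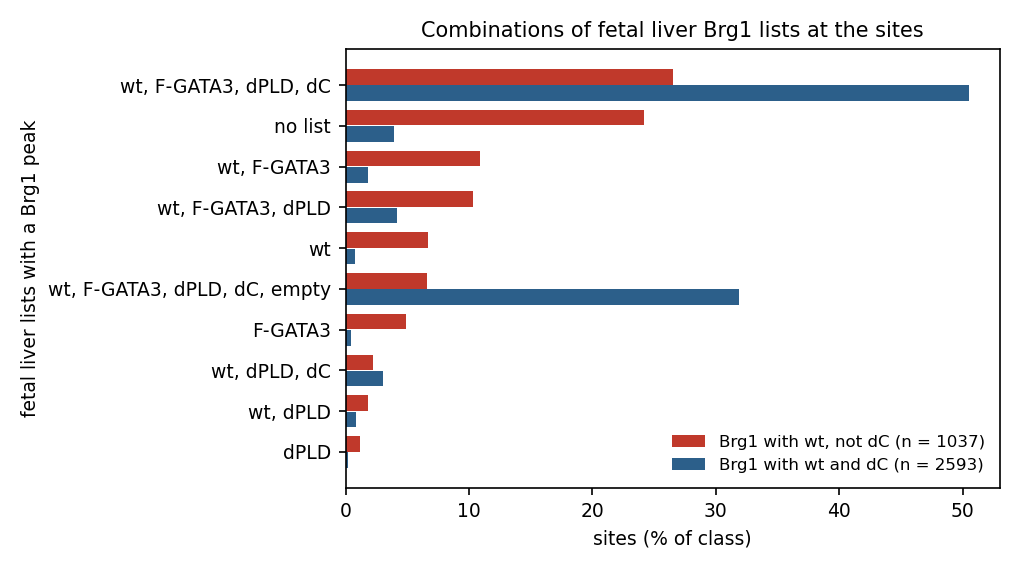
Percentage of member and kept sites (x axis) in each combination of fetal liver lists with a Brg1 peak (y axis; the 10 combinations most frequent among members). The largest combination, all 4 EBF1 versions without the empty vector, held 26.5% of members and 50.5% of kept sites, and all 5 lists held 6.56% and 31.9%. Other members spread over combinations without dC, such as wt with F-GATA3 (10.9%, against 1.85% of kept sites), and over no list (24.2%, against 3.90%).

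The share of members with a fetal liver dC peak was lower where the EBF1 wt fold in A-MuLV cells was higher, and the wt share was not. With the members in 10 bins of EBF1 wt fold, those in the lowest bin (4.51 to 6.52, n = 86) had Brg1 at 60.5% (wt), 51.2% (F-GATA3), 58.1% (dPLD), 55.8% with dC (44.7-66.5%) and 12.8% (empty vector). In the highest bin (19.9 to 72.9, n = 104) the shares were 66.3%, 67.3%, 36.5%, 20.2% (13.0-29.2%) and 1.92%. Over the same 2 ranges of fold, the dC share of kept sites was 91.1% and 78.3%. Ranked by A-MuLV wt Brg1 fold instead, the member dC share went from 44.2% (33.5-55.3%) to 33.0% (24.2-42.8%) and the wt share from 65.1% to 66.0%. Ranked by EBF1 dC fold, it went from 37.2% (27.5-47.8%) to 42.5% (32.9-52.4%), and the wt share from 48.9% to 73.6%. The members with a fetal liver wt and no dC peak had a median EBF1 wt fold of 12.5, against 9.29 at the 380 members with both, and the same median EBF1 dC fold of 10.4.

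**Figure D3:**
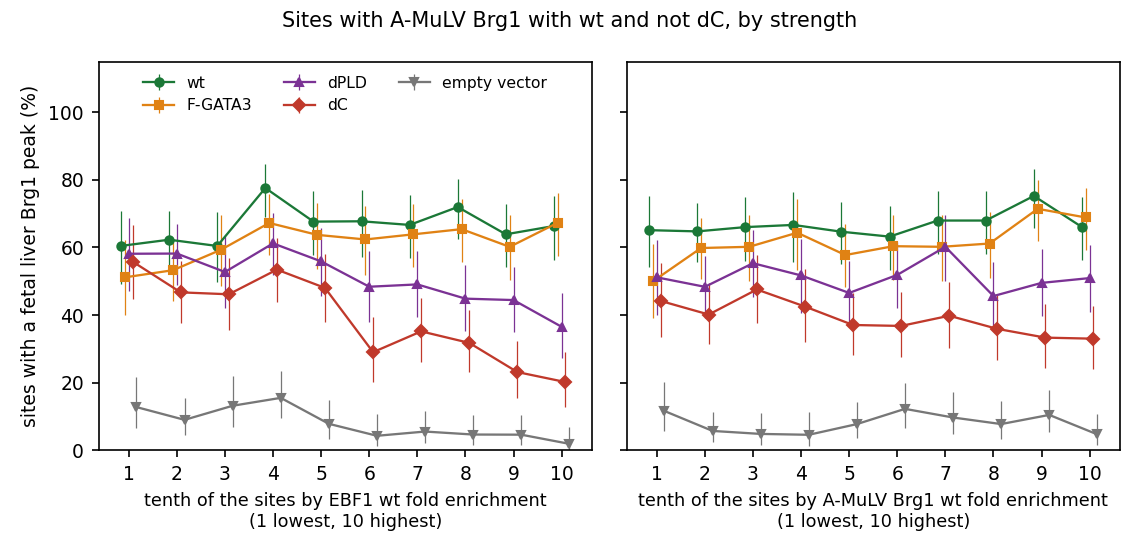
Percentage of member sites with a fetal liver Brg1 peak (y axis) in 10 bins of the sites by EBF1 wt fold (left) or by A-MuLV wt Brg1 fold (right), 1 line per fetal liver list; vertical lines are exact 95% intervals of counting error. On the left the dC line falls from 55.8% to 20.2% and the dPLD line from 58.1% to 36.5%, while the wt and F-GATA3 lines end at 66.3% and 67.3%.

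Most members lay away from gene starts, as did most EBF1 sites. The summit was inside a protein-coding gene at 57.3% of members and 56.9% of kept sites. Where the nearest gene has an annotated start, the start was within 1 kb for 72 of 796 members (9.05%, 7.14-11.3%) and 593 of 2043 kept sites (29.0%, 27.1-31.0%), and the median distance was 16277 and 8371 bp. Over all EBF1 wt sites 16.2% lay within 1 kb, with 6.43% at sites without A-MuLV Brg1 and 42 of 1104 where EBF1 was called with wt alone. Of the 72 members within 1 kb of a start, 76.4% had a fetal liver wt and 70.8% a dC peak (58.9-81.0%). Of the 724 farther away, 65.1% had a wt, 60.5% an F-GATA3, 48.1% a dPLD and 36.2% a dC peak (32.7-39.8%). Among the members with a fetal liver wt and no dC peak, 7 of 235 (2.98%) lay within 1 kb of a start, and among those with both 48 of 291 (16.5%) did.

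Members with an A-MuLV dC Brg1 peak close by had more fetal liver Brg1. The 177 members with such a peak within 1 kb had fetal liver Brg1 at 80.8% with wt, 72.3% with dC (65.1-78.8%) and 23.2% for the empty vector. The 376 members at 1 to 10 kb from one had 59.0%, 32.2% (27.5-37.2%) and 4.26%, and the 484 farther away had 67.6%, 31.8% (27.7-36.2%) and 5.17%. The dC share was thus higher within 1 kb, and the intervals of the farther groups overlap. Leaving out the members with a dC Brg1 peak within 1 kb lowered the dC share of the other 860 to 32.0%. The part of such neighbouring peaks in the fetal liver shares was not tested.

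Of the 10 members with the highest A-MuLV wt Brg1 fold, 4 had a fetal liver wt peak, 6 an F-GATA3, 3 a dPLD, 2 a dC and 0 an empty-vector peak, and 4 had none. Over all members the shares were 66.7%, 61.5%, 51.0%, 38.9% and 7.91%, with 24.2% in no list. In the highest of 10 bins by this fold, 66.0% of 106 members had a wt peak, so these 10 sites do not stand for strong members. Of the 10, the site with the highest fold had a peak with all 4 EBF1 versions and is not described further, which leaves 9. Dab2ip, which encodes a Ras GTPase-activating protein (chr2:35737570-35738325, 6837 bp from the gene), had a Brg1 fold of 28.7 in A-MuLV cells. Its fetal liver folds were 13.1 (wt), 12.6 (F-GATA3), 9.0 (dPLD) and 5.24 (dC). It had no peak for the empty vector.

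In contrast, several of the strongest members had no Brg1 peak in fetal liver. Megf6, which encodes a protein with EGF-like repeats, held in its body the member with the highest EBF1 wt fold, 72.9 (chr4:154200011-154200830). The EBF1 dC fold there was 15.1 and the A-MuLV Brg1 fold 32.4, and no fetal liver list had a peak. Tm2d1 (chr4:98334427-98335196; EBF1 52.5 with wt and 21.9 with dC, Brg1 28.7) and Pan2, which encodes a subunit of a deadenylase (EBF1 29.8 and 5.45, Brg1 26.1), likewise had none. Nor had E2f8, which encodes a repressor of cell cycle genes, where the EBF1 folds were 6.27 in the wt list and 17.5 in the dC list and a dC Brg1 peak lay 357 bp away. Adgrv1 (an adhesion receptor; EBF1 wt 50.2, A-MuLV Brg1 24.0) and Cyth3 (an ARF exchange factor; 46.8 and 12.1) completed, with Prodh2, the 5 highest by EBF1 wt fold, and had no fetal liver peak either. Prodh2, a hydroxyproline dehydrogenase gene, had 52.5 for EBF1 wt and fetal liver Brg1 folds of 15.1 (wt), 14.3 (F-GATA3), 8.17 (dPLD) and 5.75 (dC).

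The remaining 4 of the 9 had fetal liver peaks without dC. Tafa2 (a secreted chemokine-like protein) and Epas1, which encodes the hypoxia factor HIF-2α, had one with F-GATA3 alone, at 12.7 and 5.98. The latter site lay 37646 bp from Epas1. Ankrd12 had 8.00 with wt and 8.71 with F-GATA3, and a dC Brg1 peak of A-MuLV cells lay 413 bp from it. Pmf1, a kinetochore gene, had 9.82 (wt), 10.5 (F-GATA3) and 4.67 (dPLD).

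**Figure D4:**
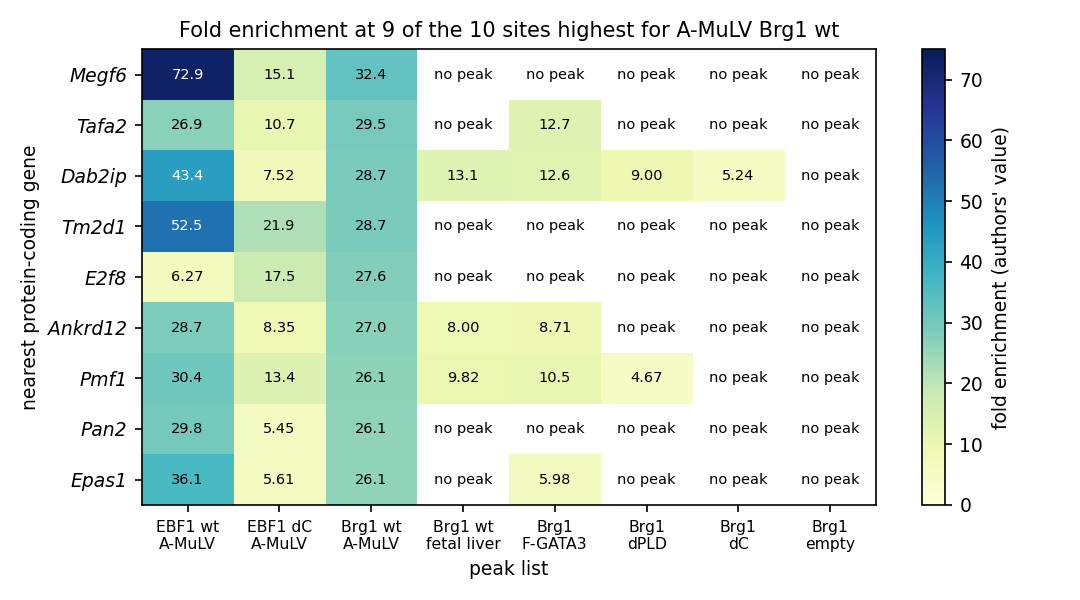
Authors' fold enrichment (colour and printed value) at 9 of the 10 members with the highest A-MuLV wt Brg1 fold (rows, named by the nearest protein-coding gene) in 8 peak lists (columns); white cells have no peak. Of the 9 rows, 4 are white in all 5 fetal liver columns, and only Dab2ip has a fetal liver dC peak; the site with the highest fold, which had one too, is not drawn.

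Members with a strong fetal liver wt peak and none with dC differed in what the other versions did. At a site 52318 bp from Nxph1, which encodes a secreted ligand of neurexins (chr6:8896101-8896501), the folds were 19.6 (wt), 14.7 (F-GATA3) and 8.35 (dPLD). Next to Actr3, a subunit gene of the Arp2/3 complex, they were 18.7, 14.4 and 16.2. An A-MuLV dC Brg1 peak lay 578 bp from the Actr3 site. The site 16777 bp from Cmip had 19.5 with wt and no peak with any other version, although A-MuLV dC cells had a Brg1 peak 1580 bp from it. Auts2 had 17.5 with wt and 5.34 with F-GATA3.

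By F-GATA3 fold, the highest members without a fetal liver dC peak were nearest Dnaja4, Fam117a, Rap1gap, Mc5r and Fibcd1. Dnaja4, a co-chaperone gene, had 17.1 with F-GATA3 and no other fetal liver peak. Fam117a had 16.9 (F-GATA3), 11.7 (wt) and 6.49 (dPLD). Rap1gap, which encodes a GTPase-activating protein for Rap1, had 16.4 and 10.0 with F-GATA3 and wt, and Mc5r, a melanocortin receptor gene, had 16.1 and 11.8. Fibcd1, which encodes a chitin-binding receptor, had 15.9, 12.2 and, with dPLD, 9.01. All 5 sites were thus without a dC peak by the way they were picked, and Fam117a and Fibcd1 had a dPLD peak.

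The members with the highest empty-vector folds were nearest Jazf1 (12.7), Snx9 (11.8), Nrip1 (11.8), Klf4 (11.2) and Cux1 (11.0). The first 4 also had a peak with each EBF1 version. At the site 175982 bp from Nrip1, which encodes a nuclear receptor corepressor, the folds were 13.0 (wt), 11.3 (F-GATA3), 8.77 (dPLD) and 8.30 (dC). At the site 53815 bp from Klf4, a Krüppel-like factor gene, they were 5.83, 5.50, 6.76 and 9.84. The Cux1 site had a peak with the empty vector and with no EBF1 version.

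Igk, the immunoglobulin kappa light chain locus, held 9 members and was counted after its values had been seen. It had 62 EBF1 wt sites (chr6:67555636-70726754), of which 48 were called with wt alone, 9 were members and 4 were kept sites. Of the 9 members, 8 had a fetal liver wt peak, 7 an F-GATA3 peak, 7 a dPLD peak, 3 a dC peak and 0 an empty-vector peak. Over all members the shares were 66.7%, 61.5%, 51.0%, 38.9% and 7.91%, and no difference from them was tested at these 9 sites. The fetal liver wt folds of the Igk members ranged from 5.76 to 25.1. At chr6:69662403-69662789 the folds were 15.1 (wt), 11.6 (F-GATA3) and 9.51 (dPLD), with none for dC, and at chr6:70457945-70458337 they were 16.4, 10.1, 8.37 and, with dC, 5.89. The heavy chain locus Igh held 2 members and 7 kept sites among 13 EBF1 wt sites. One of the 2 members (A-MuLV Brg1 fold 15.8) had an F-GATA3 peak alone and lay 23 bp from an A-MuLV dC Brg1 peak, and the other had a fetal liver wt peak alone.

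Genes with a member within 10 kb numbered 934 of 21887 protein-coding genes (4.27%), and those with a kept site 2292 (10.5%). Of 16 B-lineage transcription factor genes 5 had a member and 12 a kept site. Of 16 genes of the pre-B-cell receptor and its signalling, 2 had a member and 13 a kept site, and of 16 B-cell surface genes 1 and 8. There were 9 member sites near these 8 genes, with A-MuLV Brg1 folds from 3.85 to 10.2, and 4 of the 9 had a fetal liver dC peak. Within 50 kb, 14 of the 48 B-lineage genes had a member, where 9.77% of all protein-coding genes did.

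Ebf1 itself held 2 members and 2 kept sites. The member at chr11:44911304-44911711 (EBF1 14.8 with wt and 10.3 with dC, A-MuLV Brg1 5.23) had no fetal liver peak. The other, at chr11:45002003-45002376 (EBF1 9.63 and 6.30, Brg1 4.70), had fetal liver folds of 8.15 (wt), 7.37 (F-GATA3), 6.15 (dPLD) and 5.60 (dC). Tcf3, which encodes the E2A factors, had a member in its body with 7.28 with wt and 6.30 with F-GATA3 and no peak with dPLD or dC. It was the sole site near the B-lineage genes with that pattern. Foxo1, a factor that drives recombinase gene expression, Pou2f2, which encodes OCT2, and Spib, an Ets factor gene, had a member without any fetal liver peak.

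Near Vpreb2, a surrogate light chain gene, the member had a fetal liver peak with dPLD (7.96) and dC (6.50) only. In Bank1, a B-cell adaptor gene, the folds were 6.53 (wt), 7.76 (F-GATA3), 6.70 (dPLD) and 6.05 (dC), and in Cd24a, which encodes the surface protein heat-stable antigen, they were 9.66, 8.06, 6.03 and 6.75. The Vpreb2, Bank1 and Cd24a sites had a dC Brg1 peak of A-MuLV cells nearby, 632, 556 and 178 bp away.

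The other lists had few genes with a member within 10 kb. Early lymphoid cytokine receptor genes had 1 of 6, Flt3, whose member had fetal liver peaks with wt (6.37) and F-GATA3 (9.99) alone. T-lineage genes had 2 of 16, Notch1 and Il2ra. Notch1 had 2 members, 1 without any fetal liver peak and 1 with 10.6 (wt), 11.1 (F-GATA3), 15.2 (dPLD), 12.2 (dC) and 4.44 (empty vector), and the Il2ra member had none. Innate lymphoid and NK genes had 1 of 12, Tox, whose member had a peak in all 5 lists, from 8.60 with the empty vector to 19.7 with wt. Erythroid and megakaryocyte genes had 1 of 10, Itga2b, an integrin gene of megakaryocytes, with 9.27 (wt), 5.82 (F-GATA3) and 5.41 (dPLD) and none with dC. Progenitor genes had 1 of 12, Runx1, which had all 5 lists, with folds of 14.3 (dPLD), 12.0 (dC) and 8.91 (wt). An A-MuLV dC Brg1 peak lay 536 bp from the Runx1 site. Myeloid genes had 1 of 14 (Csf3r, the G-CSF receptor), BAF and PBAF subunit genes 1 of 16 (Arid1b), and ubiquitously expressed genes 1 of 14 (Actb). The Actb member had a dC Brg1 peak of A-MuLV cells 187 bp away. V(D)J recombination genes had 0 of 3, cell cycle and Myc family genes 0 of 10 and stromal genes 0 of 11.

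Most genes nearest to a member had Brg1 peaks with dC at other positions, as had most genes nearest to a kept site. The 1037 members were nearest to 902 protein-coding genes, of which 109 had 2 or more members and 303 (33.6%) were nearest to a kept site as well. An A-MuLV dC Brg1 peak lay in the gene or within 10 kb of it for 738 of the 902 (81.8%, 79.1-84.3%), none of them at a member, against 52.1% of all protein-coding genes and 95.7% of the 1665 genes nearest to a kept site and to no member. A fetal liver dC Brg1 peak lay there for 827 (91.7%), those at members included, against 63.3% and 96.5%. More A-MuLV Brg1 peaks were called with wt than with dC at 542 genes (60.1%), a count that the member sites themselves raise, and the reverse at 168 (18.6%). Over all protein-coding genes these counts were 3964 and 4158 of 21887. In fetal liver 330 genes (36.6%) had more peaks with wt than dC and 200 (22.2%) the reverse, where all protein-coding genes had 12.5% and 16.3% and the 1665 genes 23.6% and 26.0%. Members with a fetal liver wt and no dC peak raise the count of 330 too, as peaks at members were not left out. Ebf1 had 26 and 20 A-MuLV Brg1 peaks with wt and dC, and 13 and 13 in fetal liver. Tcf3 had 12 and 10 in A-MuLV cells and 7 and 5 in fetal liver, whereas Runx1, with 5 and 14, had more with dC.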

How the data were processed

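ChIP-seq peak lists of 9 libraries were used out of 14 samples, and the inputs and signal tracks were not used here. Per the submitters' processing notes, MACS2 2.1.2, Bowtie2 2.3.3.1, deepTools 3.3.1 and SAMtools 1.9 were used, with GRCm38. The sources used here do not give the peak threshold, the treatment of duplicate reads or which input was used for which library. Each deposited list gives peak positions, the authors' fold enrichment (a ratio), −log10 p and −log10 q, and a score that is 10 times the −log10 q. The lowest deposited −log10 q was 1.37 (wt) and 1.33 (dC) in the A-MuLV Brg1 lists and near 10 in the others. Per the labels' protocols, crosslinking was with 2% formaldehyde and EGS in fetal liver cells, 1% and EGS for A-MuLV Brg1, and 1% alone for EBF1.

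Overlaps were computed with numpy 2.4.6 and pandas 2.3.3, checked with bedtools 2.31.1 and on simulated intervals, and intervals are from scipy 1.17.1. The members and the 14 gene lists (172 genes, all matched) were chosen with earlier results of these data known. No test was made across conditions. Genes are those of RefSeq for GRCm38.p6 (21887 protein-coding, with no exons). Sites took the name of the gene whose interval was nearest, the shorter one in a tie, because only 17492 genes have an annotated start in the tables used here. Distances to a start are given only where the nearest gene has one. Weighted shares of kept sites use 10 bins of the members' fold. Named are the 10 members with the highest A-MuLV wt Brg1 fold, the 5 highest by EBF1 wt fold, by fetal liver wt or F-GATA3 fold without a dC peak and by empty-vector fold, 1 site per gene, and genes of the lists within 10 kb. Of these, 2 sites are not described here. Alternatives were other overlaps, thresholds, list lengths and gene windows. Promoter windows, genes with several members and weighting by EBF1 dC or fetal liver fold were added after the data had been seen.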

Additional observations from a re-analysis of the deposited data

How the results depend on the processing

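Most alternatives changed the rule and the fetal liver overlaps together, but a minimum −log10 q of 5 left the fetal liver lists as they were, and leaving out members near a dC Brg1 peak changed the members alone. The number of member sites lay between 705 and 1198 except at a −log10 q of at least 20, where it was 513. Fetal liver shares of members, in the order wt, F-GATA3, dPLD, dC and empty vector, were 51.7%, 48.7%, 37.5%, 25.9% and 4.60% with summits no more than 200 bp apart. With a minimum −log10 q of 5 they were 73.9%, 69.8%, 61.6%, 49.8% and 11.6%, and with 20 they were 85.4%, 79.9%, 73.7% and 61.0% for the 4 EBF1 versions. With equal list lengths they were 50.5%, 50.9%, 37.0% and 26.2%. Without members that had a dC Brg1 peak within 1 kb, dPLD, dC and the empty vector stood at 45.2%, 32.0% and 4.77%. Kept sites had, in the same order, 78.7%, 75.9%, 72.6%, 68.5% and 17.5% (summits), 95.7%, 92.0%, 94.1%, 90.7% and 36.0% (at 5), 91.7%, 86.9% and 90.4% for wt, F-GATA3 and dPLD and 18.6% for the empty vector (at 20), and 86.9%, 83.2%, 84.4% and 76.0% (equal lengths). Their empty-vector share was 30.3% with an overlap of 50% of the shorter peak. The wt share of members with fetal liver Brg1 in wt or dC alone was 97.0% at 20 and 90.9% to 94.8% otherwise. Member minus kept shares among sites with a fetal liver wt peak were -6.24 (F-GATA3), -32.2 (dC) and -18.9 (empty vector) percentage points after weighting to fetal liver fold. The empty-vector difference was -19.2 points beyond 1 kb from a start. With a 50 kb window, 2139 genes and 14 B-lineage genes were near a member, and CCCNNGGG was in 44.8% of the promoter windows. No difference between member and kept shares changed sign. The order of F-GATA3 and dPLD at kept sites turned with summits no more than 200 bp apart, and F-GATA3 passed wt at members with equal list lengths, both by the values above. The cause of these shifts was not tested. No paired analysis was possible because each group had 1 library. Motifs within the peaks and around the summits were not run, since no genome was used here. Fetal liver lists stop at stronger peaks than the A-MuLV Brg1 lists, and depth is unknown, so an uncalled weak site cannot be told from an unoccupied one.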

Other observations

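Of the 902 genes nearest to a member, 15 had 3 or more members, and those named here were chosen after their values were seen. Among them, Myl10, Zmiz1 and Rpia had 5 members each. Cux1, Tnrc18 and Zan had 4. Arhgap22 and Hip1, which encodes a clathrin adaptor, had 3 members each and no kept site. Around Arhgap22 the A-MuLV lists had 5 Brg1 peaks for wt and 0 for dC, and the fetal liver lists 3 (wt), 4 (F-GATA3), 1 (dPLD), 1 (dC) and 1 (empty vector). Around Hip1 there were 3 and 0 in A-MuLV cells, but 12 (wt) and 12 (dC) in fetal liver. Zan had 6 and 1 in A-MuLV cells and 8 and 3 in fetal liver. Sgms1 went the other way in A-MuLV cells, with 14 and 17, although it had 3 members.

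The members were spread over the autosomes and X. Among EBF1 sites common to both forms, their share ran from 16.0% on chromosome 9 (39 of 243 sites) to 29.3% on chromosome 5 (112 of 382; 24.8-34.2%), around 22.0% in all. The nearest other member was a median of 251996 bp away and the nearest kept site 95217 bp. Another member lay within 100000 bp of 32.2% of members, and a kept site within that distance of 51.4%. No expected spacing was computed, so these distances do not show whether members cluster.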
